A study of Mus musculus with 12 samples.

Results

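The genes described here carry glucose into the muscle fibre, split it to pyruvate and lactate, feed the glycerol phosphate shuttle and run the pentose phosphate pathway. They were taken from a list of 36 mouse gene symbols, and every probe whose platform annotation gives one of these symbols was used. 31 of the 36 genes had at least 1 probe (56 probes), of 19057 genes named on the array by its 45281 probes. Hk2, Gpi1, Pfkfb1, Eno1 and G6pdx had no probe under their symbol and were not analysed here.

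The tissue was skeletal muscle, with sample titles that abbreviate gastrocnemius, of transgenic (TG) mice that overexpress the nuclear receptor Nur77 in skeletal muscle and of wild-type (WT) mice. Mice of both genotypes had been fasted overnight, so no fed group exists in these data. The RNA of 2 mice was combined into each pool, which gave 3 TG pools from 6 mice and 3 WT pools from 6 mice, and each pool was hybridised once to each of 2 chips (12 single-colour Illumina arrays). The sources used here do not give the promoter that drives the transgene, the strain, the sex or the age. The spread between single mice was not measured, and p-values rest on the spread between pools only.

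The transgene could not be checked, since the Nr4a1 probe, for the gene that encodes Nur77, was detected on 0 of 12 arrays. Detected probes numbered between 17607 and 19118 per array, and 15708 probes were kept, each detected on every array of TG, of WT or of both. Summed signals of 7 kept muscle fibre markers, of 8 listed, lay between 277854 and 291984 in TG pools and between 239871 and 267930 in WT pools, so the tissue label held in every pool. Pools TG3 and WT1 stood apart in leukocyte markers, at 4660.2 in TG3 and 1872.4 in WT1, against 952.6 and 994.9 in the other TG pools and 497.0 and 499.9 in the other WT pools. The leukocyte sum rests on 3 kept markers of 6 listed, and Ptprc and Itgam had probes but none that was kept. In these bulk samples fewer cells of a type and less RNA per cell cannot be told apart.

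Glucose enters muscle through facilitative transporters, of which GLUT4 (Slc2a4) moves to the surface on insulin or contraction and GLUT1 (Slc2a1) serves basal uptake. Hexokinase traps the sugar, phosphofructokinase commits it to glycolysis, and the steps from glyceraldehyde phosphate dehydrogenase to pyruvate kinase return ATP. Lactate dehydrogenase regenerates NAD in fast fibres, whereas the glycerol phosphate shuttle passes the same electrons to mitochondria. For most steps skeletal muscle uses its own isoform beside the one found in other tissues.

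Of the 31 genes, 24 had a kept probe (33 probes). In the limma fit over all kept probes, with a threshold of 0.05 on the Benjamini-Hochberg adjusted p, 15 of the 33 probes, in 13 genes, were called. Over all kept probes 25.8% were called, 11.3% higher and 14.6% lower in TG, while among the 33 probes 11 were called higher and 4 lower. On chip 2 alone 7 of the 33 probes and 9.26% of all probes were called, and without WT2 8 of the 33 and 13.1% of all. With each gene represented by its brightest kept probe, 8 of 24 genes were higher in TG, 3 were lower and 13 were not called, against 28% of all 9131 genes called (12.1% higher and 15.9% lower). The median log2 difference, TG minus WT, was 0.14 over the 24 genes and -0.02 over all genes. Pfkp (0.26) and Bpgm (0.27), among the 24, passed the filter through the TG arrays alone. Both lie above the median of 0.14, which is thus in part built into the filter. Taken pool by pool against the WT mean, the median over the 24 genes was 0.10, 0.13 and 0.16 in TG1, TG2 and TG3, and -0.01, -0.0032 and 0.03 in WT1, WT2 and WT3. Each WT pool is part of that mean, so the WT values are drawn towards it by construction.

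The 24 genes were not a uniform group. They were sorted here into muscle isoforms, other isoforms and genes of a single form. These labels are loose, since Gpd1, Aldoa, Ldha and Slc16a3, labelled muscle, are not confined to muscle, and Gpd2, labelled other, is no counterpart isoform. Pkm, labelled as of a single form, gives splice forms and has a relative, Pklr, whose probes were not kept. Of 8 genes labelled muscle, 4 were higher in TG, 0 were lower and 4 were not called, with a median log2 difference of 0.18. Of 10 labelled other, 2 were higher, 3 were lower and 5 were not called, with a median of -0.05. Of 6 labelled as of a single form, Pgk1 and Pkm among them, 2 were higher, 0 were lower and 4 were not called, with a median of 0.15. The 3 lower genes were 2 glucose transporters and a regulator of phosphofructokinase. Over the 12 tested genes of the steps from hexokinase to lactate dehydrogenase, 5 were higher, 0 were lower and 7 were not called (median 0.21). Within these, the 7 tested genes from Gapdh to lactate dehydrogenase had 4 higher, 0 lower and 3 not called (median 0.31). Of all genes 28% were called, 12.1% higher and 15.9% lower. The called share was 50% for genes labelled muscle and 50% for those labelled other. It was 33.3% for those of a single form, near that of all genes. From hexokinase to lactate dehydrogenase it was 41.7%, and from Gapdh 57.1%. Among the kept probes 28 were detected on all 12 arrays, 4 passed through the TG arrays alone and 1 through the WT arrays alone, so that for these 5 a difference is in part built into the filter.

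**Figure D1:**
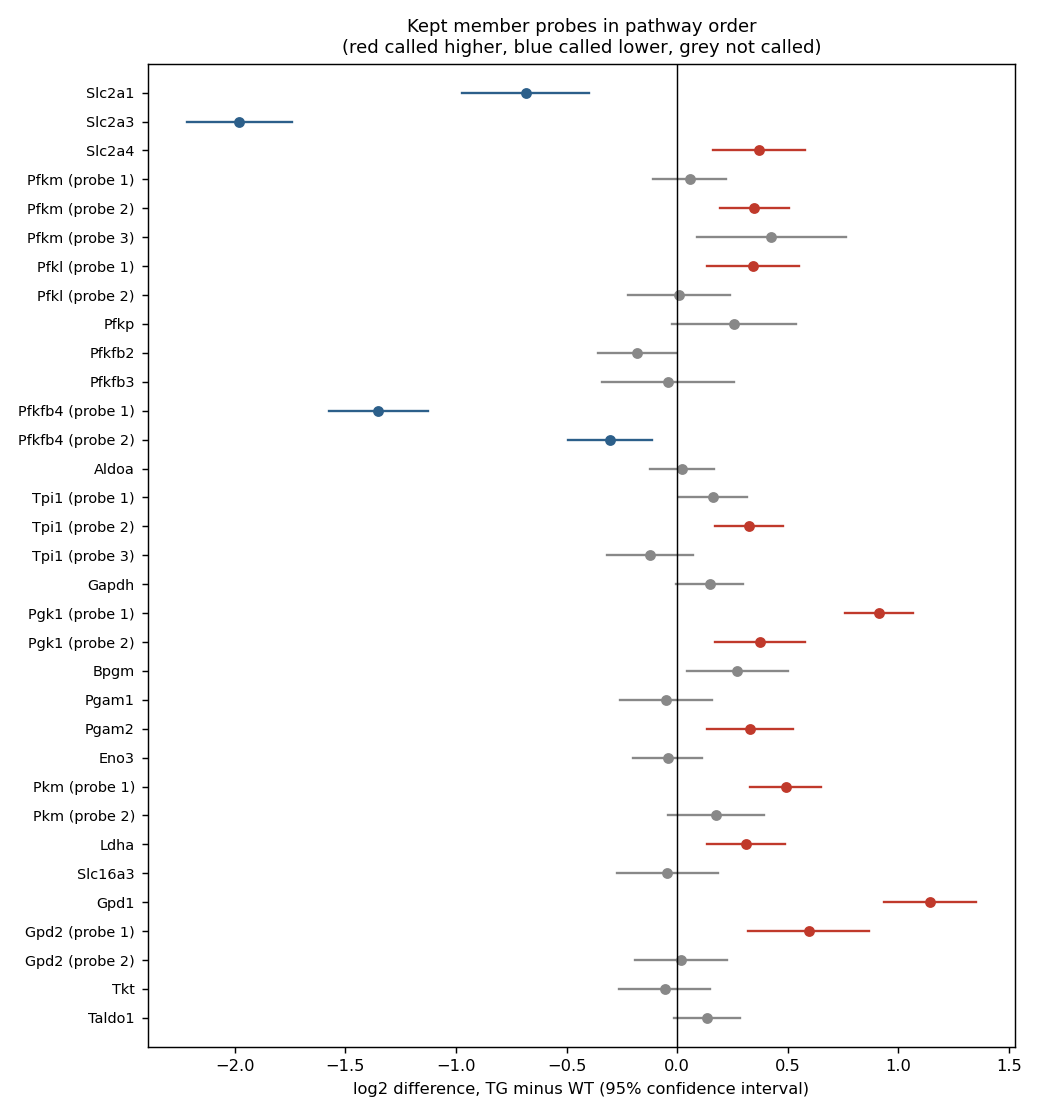
The horizontal axis gives the log2 difference, TG minus WT, with its 95% confidence interval, for the 33 kept probes in pathway order from top to bottom. Red points were called higher in TG, blue points lower and grey points were not called. The lower calls lie at Slc2a1, Slc2a3 and Pfkfb4, and the largest positive values belong to Gpd1 (1.14) and Pgk1 (0.91).

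The proximal promoters of the genes whose brightest probe was called with a log2 size of at least 0.5 are shown because they are the stretches in front of the transcripts that differed most. Each is the 250 bases before the annotated start, from the RefSeq promoter table (build GRCm38.p6, plus strand). Capitals mark ACGTG, the core of the hypoxia response element, or its complement CACGT. They lie at chr4:119108495-119108744 for Slc2a1, chr9:108991652-108991901 for Pfkfb4, chrX:106186850-106187099 for Pgk1, and chr2:57237428-57237677 and chr2:57238132-57238381 for both starts of Gpd2. Slc2a3 and Gpd1 met the same rule and are named only.
Slc2a1: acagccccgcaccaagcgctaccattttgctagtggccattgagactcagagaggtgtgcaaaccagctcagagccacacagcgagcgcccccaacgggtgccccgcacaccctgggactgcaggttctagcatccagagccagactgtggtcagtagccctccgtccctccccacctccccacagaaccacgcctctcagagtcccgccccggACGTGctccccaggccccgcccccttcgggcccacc
Pfkfb4: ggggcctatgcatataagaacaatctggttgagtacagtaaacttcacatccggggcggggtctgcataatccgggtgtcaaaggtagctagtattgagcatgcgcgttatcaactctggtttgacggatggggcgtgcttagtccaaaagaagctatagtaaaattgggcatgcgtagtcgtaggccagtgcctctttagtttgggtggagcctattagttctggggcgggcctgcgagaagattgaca
Pgk1: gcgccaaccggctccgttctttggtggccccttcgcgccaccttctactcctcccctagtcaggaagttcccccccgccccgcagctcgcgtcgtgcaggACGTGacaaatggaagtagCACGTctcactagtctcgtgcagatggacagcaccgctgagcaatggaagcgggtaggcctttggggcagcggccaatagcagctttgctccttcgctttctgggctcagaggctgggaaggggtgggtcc
Gpd2, first start: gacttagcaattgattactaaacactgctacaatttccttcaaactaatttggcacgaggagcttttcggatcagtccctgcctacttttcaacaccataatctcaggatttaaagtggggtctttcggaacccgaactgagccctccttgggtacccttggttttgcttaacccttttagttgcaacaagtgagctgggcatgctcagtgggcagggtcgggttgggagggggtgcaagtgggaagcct
Gpd2, second start: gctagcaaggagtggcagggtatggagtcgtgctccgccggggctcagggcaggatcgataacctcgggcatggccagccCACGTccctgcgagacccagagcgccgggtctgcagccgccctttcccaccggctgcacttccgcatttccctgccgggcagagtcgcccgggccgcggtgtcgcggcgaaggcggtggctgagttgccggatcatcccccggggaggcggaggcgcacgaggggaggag

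The Slc2a1 stretch held 1 core beginning 36 bases before the start, the Pgk1 stretch held 2, beginning 150 and 131 bases before it, and the Gpd2 stretch at the second start held 1 at 170 bases. The Pfkfb4 stretch and that of the first Gpd2 start held 0. Across 32851 promoters of the same length 16.6% held ACGTG on either strand, against 19 of 52 promoters (36.5%) of the 33 listed genes found in the table. Of the promoters of genes called higher in TG 6 of 14 held it, and of those of genes called lower 1 of 2. The longer E-box CACGTG, which overlaps it, was in 6.02% of all promoters and 13.5% of those of the listed genes. The NBRE, AAAGGTCA, which NR4A receptors such as Nur77 bind, was in 1.34% of all promoters and in 2 of the 52, those of Eno1 and Pfkfb1, neither of which had a probe. These letter matches describe the stretches and are not evidence of binding.

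The 3 glucose transporters did not move together. Slc2a3, which encodes the high-affinity transporter GLUT3 best known from neurons, had signals of 34.5, 44.5 and 49.0 in the TG pools, against 379.8, 454.1 and 327.4 in the WT pools. All 3 TG pools lay far below every WT pool, and the probe was detected on all 12 arrays. The log2 difference was -1.98 ± 0.10 (SE, n = 3 pools each, adjusted p = 2.2e-05 by limma), and it was -2.28 on chip 1 and -1.68 on chip 2. The background correction used here compresses differences of dim probes, and without it the log2 difference was -3.11.

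Slc2a1, which encodes GLUT1, was also lower. Its signals were 230.8, 252.6 and 238.7 in TG1, TG2 and TG3, against 593.6, 382.0 and 422.6 in WT1, WT2 and WT3. The groups did not overlap, and WT1 was the highest of the 3 WT pools. The log2 difference of -0.69 ± 0.12 (adjusted p = 0.00684) was -0.55 without WT1 and stayed past the threshold. Slc2a4, which encodes GLUT4, had 3336.2, 3310.1 and 2878.1 in TG pools, against 2475.8, 2716.1 and 2592.6 in WT pools. All TG pools were above all WT pools, by a log2 difference of 0.37 ± 0.09 (adjusted p = 0.0211). This call was lost in 9 of 18 alternatives, among them 75th percentile scaling (0.29), chip 2 alone (0.35) and the removal of any WT pool (0.32 to 0.40).

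GLUT1 and GLUT3 are also made by cells other than fibres, and the markers of such cells were summed over kept probes. Endothelial markers (5 kept of 6, Kdr without a kept probe) lay between 7446.1 and 8746.3 in TG pools, against 6933.5 to 7715.6 in WT pools. Nerve sheath markers (3 kept of 6) lay between 2081.9 and 2572.8 in TG pools, against 2264.4 to 3061.5 in WT pools. Red cell markers (2 kept of 5) lay between 23865.6 and 37563.4 in TG pools, against 20062 to 28973.6 in WT pools. Leukocyte markers (3 kept of 6) lay between 952.6 and 4660.2 in TG pools, against 497.0 to 1872.4 in WT pools. Among WT pools, WT1 was highest for nerve sheath and leukocyte markers and for Slc2a1, and WT2 was highest for red cell markers and for Slc2a3. The part of these cells in the lower Slc2a1 and Slc2a3 signals was not tested.

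**Figure D2:**
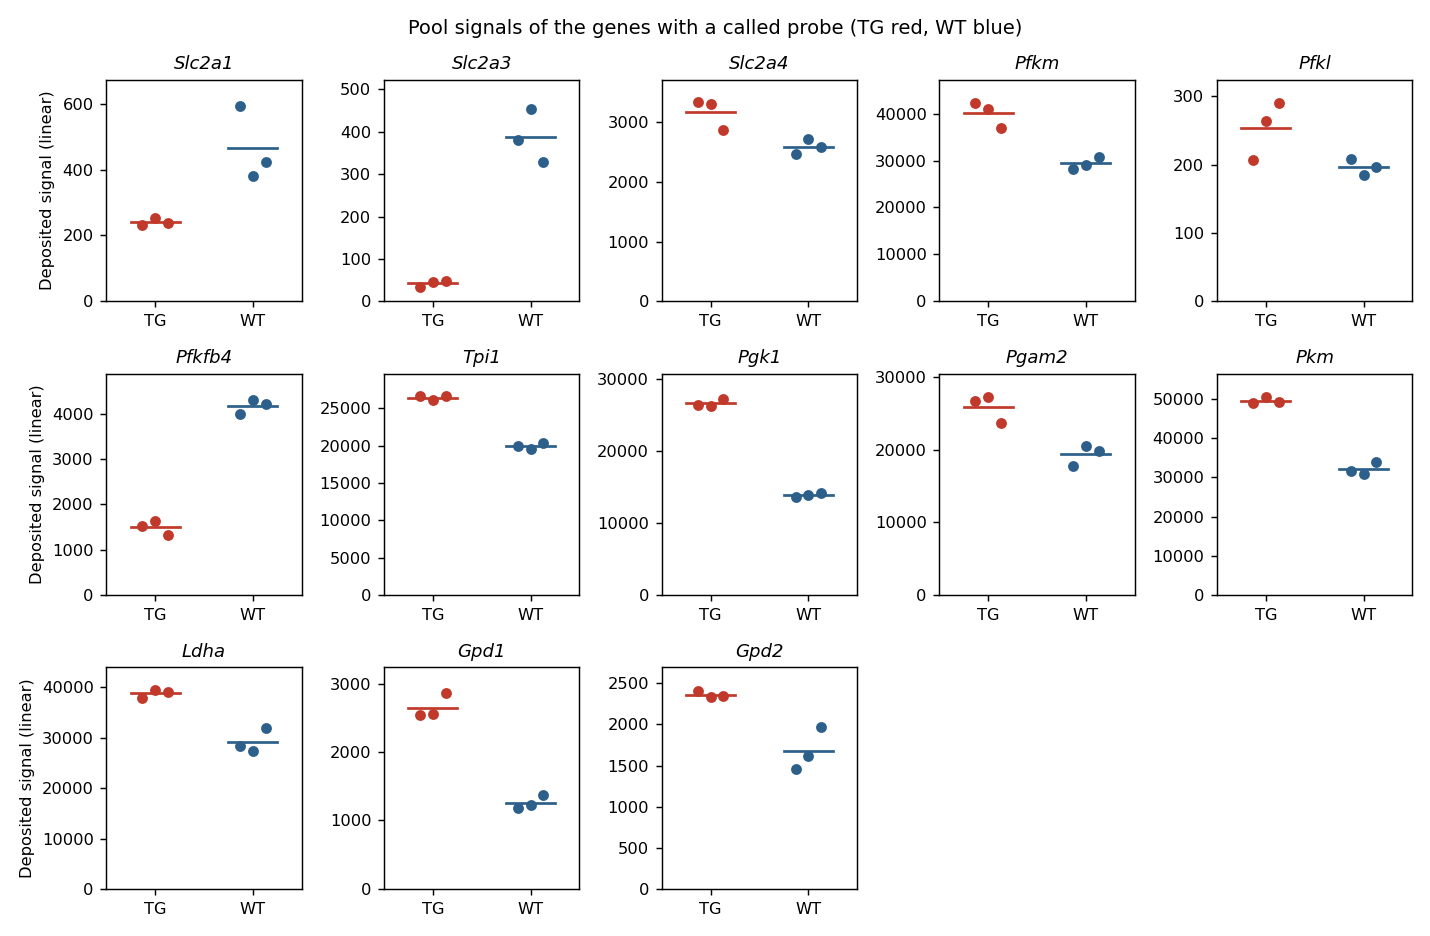
Each panel shows 1 gene with a called probe, by its brightest called probe, with the deposited linear signal on the vertical axis from 0, a point per pool (TG red on the left, WT blue on the right) and a line at each mean. The groups do not overlap in 12 of the 13 genes, and Pfkl is the exception. The genes were chosen by their call on the same pools, so little overlap follows from that choice. Of all genes, by brightest kept probe, 49.6% did not overlap.

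Among the members, hexokinase had probes only for Hk1, the isoform of most tissues. Its 2 probes were not kept, with pool signals of at most 21.4 in TG and 2.9 in WT. Hk3, listed alongside, also had no kept probe. It read 19.2, 13.8 and 62.5 in TG pools, against 33.8, -2.8 and 15.6 in WT pools. At the phosphofructokinase step the muscle isoform Pfkm had 3 kept probes that gave unequal values. ILMN_3004553 read 42229.0, 41027.2 and 36878.2 in TG pools, against 28196.8, 29122.2 and 30827.2 in WT pools, a log2 difference of 0.35 ± 0.07 (adjusted p = 0.00922). The brighter ILMN_2628892 read 46875.1, 50108.7 and 42098.8 in TG pools, against 38171.4, 38355.8 and 41957.6 in WT pools, and was not called (0.06 ± 0.07, adjusted p = 0.58). The dimmest, ILMN_1252214, read 5337.4, 5158.7 and 4765.9 in TG pools, against 3226.8, 4247.9 and 4751.6 in WT pools. Its groups did not overlap, though TG3 and WT3 nearly met, and it was not called (0.42 ± 0.15, adjusted p = 0.066). The call of ILMN_3004553 was lost on chip 2 alone and in the authors' deposited table.

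The liver isoform Pfkl read 207.1, 263.8 and 289.4 in TG pools, against 208.3, 185.1 and 196.2 in WT pools. TG1 fell inside the WT range, so the groups overlapped although the probe was called (0.34 ± 0.09, adjusted p = 0.0274). The call was lost in 8 of 18 alternatives, and a dimmer Pfkl probe gave 0.01 ± 0.10. The platelet isoform Pfkp, detected on 6 of 6 TG arrays and 5 of 6 WT arrays, read 24, 42.1 and 49.4 in TG pools, against 26.9, 29.5 and 8.3 in WT pools, and was not called (0.26 ± 0.12, adjusted p = 0.155).

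Phosphofructokinase is switched on by a fructose bisphosphate that the bifunctional Pfkfb enzymes make and break. Pfkfb4, a member of this family first described in testis, had 1529.0, 1626.2 and 1318.0 in TG pools, against 3983.0, 4289.8 and 4216.3 in WT pools. Every TG pool lay far below every WT pool. The log2 difference was -1.35 ± 0.10 (adjusted p = 9.8e-05 by limma), with -1.27 on chip 1 and -1.43 on chip 2, and the call was kept in all 18 alternatives. A second, dim Pfkfb4 probe was detected on 1 of 6 TG arrays and 6 of 6 WT arrays, with 1.3, 9.1 and 16.4 in TG pools, against 25.6, 27.5 and 26 in WT pools (-0.30 ± 0.08, adjusted p = 0.0307). That probe was kept through the WT arrays alone, so its difference is in part built into the filter and adds no independent support. Pfkfb2, the heart isoform, read 141.1, 163.9 and 153.4 in TG pools, against 206.8, 194.2 and 174.8 in WT pools, and was not called (-0.18 ± 0.08, adjusted p = 0.115). The inducible Pfkfb3 read 39.8, 60.6 and 68.0 in TG pools, against 38.2, 68.8 and 70.3 in WT pools, with overlap (-0.04 ± 0.13, adjusted p = 0.828).

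Aldolase and triose phosphate isomerase are among the brightest transcripts of the array. Aldoa, the muscle aldolase, read 55076.2, 56865.8 and 50952.2 in TG pools, against 43130.1, 45960.2 and 48872.9 in WT pools. The deposited signals did not overlap, yet after quantile normalisation the log2 difference was 0.02 ± 0.06 (adjusted p = 0.828). Aldoc, the brain isoform, had no kept probe. Of 3 Tpi1 probes, ILMN_2932359 was called higher, with 26615.0, 26129.5 and 26629.4 in TG pools, against 19946.7, 19545.2 and 20406.3 in WT pools (0.32 ± 0.07, adjusted p = 0.0111). That call was lost on chip 2 alone and without WT2. The brightest Tpi1 probe read 49892.7, 52627.0 and 50481.9 in TG pools, against 36952.1, 39977.6 and 43191.8 in WT pools, and was not called (0.16 ± 0.07, adjusted p = 0.108). The other, dim probe gave -0.12 ± 0.08 (adjusted p = 0.313), so the Tpi1 probes did not give 1 direction.

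At the steps that return ATP, Pgk1 and Pkm were called higher in TG in every alternative. Pgk1, phosphoglycerate kinase, had 26414.8, 26182.2 and 27242.3 in TG pools, against 13594.8, 13830.7 and 14141.1 in WT pools. The 3 TG pools lay close together and so did the 3 WT pools, with no overlap between the genotypes. The log2 difference was 0.91 ± 0.07 (1.88-fold, adjusted p = 0.00011 by limma), and it was 0.91 on either chip. A dim Pgk1 probe, detected on 6 of 6 TG arrays and 2 of 6 WT arrays, read 34.5, 31.7 and 29.4 in TG pools, against 17.1, 1.8 and 11.7 in WT pools (0.37 ± 0.09, adjusted p = 0.0182). That probe was kept through the TG arrays alone, so its difference is in part built into the filter and adds no independent support. Another dim Pgk1 probe, ILMN_2797973, detected on 2 of 6 TG arrays and 4 of 6 WT arrays, was not kept and not tested. It ran the other way without overlap, with 10.3, 3.2 and 16 in TG pools, against 21.3, 21.3 and 20 in WT pools.

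Pkm, pyruvate kinase, whose gene gives the splice forms M1 and M2, had 48858.1, 50367.8 and 49180.1 in TG pools, against 31573.6, 30989.6 and 33880.6 in WT pools. Its log2 difference was 0.49 ± 0.07 (1.40-fold, adjusted p = 0.00234), with 0.47 on chip 1 and 0.51 on chip 2. A dim Pkm probe, detected on 6 of 6 TG arrays and 4 of 6 WT arrays, gave 0.18 ± 0.09 and was not called. The probes carry no annotation of the splice form here.

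Pgam2, the muscle phosphoglycerate mutase, read 26640.2, 27213.2 and 23694.7 in TG pools, against 17811.0, 20491.5 and 19821.7 in WT pools. The log2 difference of 0.33 ± 0.08 (adjusted p = 0.0258) was 0.43 on chip 1 and 0.22 on chip 2, and the call was lost in 9 of 18 alternatives, chip 2 alone included. Pgam1, the form of most other tissues, read 42.9, 52.5 and 72.4 in TG pools, against 75.4, 53.0 and 54.5 in WT pools, and its groups overlapped (-0.05 ± 0.09, adjusted p = 0.691). Bpgm, the red cell mutase, was detected on 6 of 6 TG arrays and 3 of 6 WT arrays and was not called (0.27 ± 0.10, adjusted p = 0.0769).

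Gapdh, often used as a loading control, read 46895.9, 49232.4 and 46889.7 in TG pools, against 36202.7, 38804.9 and 39133.1 in WT pools. The deposited signals did not overlap, while the normalised log2 difference was 0.15 ± 0.07 and was not called (adjusted p = 0.137). Eno3, the muscle enolase, had 53962.8, 55397.0 and 47273.4 in TG pools, against 42999.1, 46301.1 and 49156.0 in WT pools. Its groups overlapped, and its log2 difference was -0.04 ± 0.07 (adjusted p = 0.664), with the sign turned under other scalings.

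Ldha, the lactate dehydrogenase subunit of fast fibres, had 37942.2, 39362.2 and 39066.3 in TG pools, against 28327.5, 27392.8 and 31994.8 in WT pools. The groups did not overlap and the log2 difference was 0.31 ± 0.08 (adjusted p = 0.0218). It lost the call in 6 of 18 alternatives, at 0.25 on chip 2 alone and 0.27 without WT2. Ldhb, the heart subunit, had no kept probe, with signals of 14.4, 20.9 and 28 in TG pools, against 15.8, 24.8 and 19.5 in WT pools. Slc16a3, the lactate exporter MCT4 of fast fibres, read 231.4, 227.1 and 209.5 in TG pools, against 226.6, 273.4 and 232.1 in WT pools, and was not called (-0.04 ± 0.10, adjusted p = 0.760). Slc16a1, the transporter MCT1 that also takes lactate up, was detected on 0 of 12 arrays.

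Both enzymes of the glycerol phosphate shuttle were higher in TG. Gpd1, the cytosolic enzyme, had 2538.1, 2552.7 and 2859.4 in TG pools, against 1184.8, 1227.0 and 1365.0 in WT pools. All TG signals were above all WT signals. This was the largest rise among the 33 probes, at a log2 difference of 1.14 ± 0.09 (2.21-fold, adjusted p = 0.00015 by limma), with 1.21 on chip 1 and 1.07 on chip 2. Gpd2, the mitochondrial enzyme, read 2402.6, 2328.5 and 2350.0 in TG pools, against 1458.4, 1612.5 and 1973.6 in WT pools. Its log2 difference was 0.59 ± 0.12 (1.51-fold, adjusted p = 0.00997), and the call was lost on chip 2 alone and in the authors' deposited table. A dim second Gpd2 probe gave 0.02 ± 0.09 (adjusted p = 0.900). Gpd1l, the relative of Gpd1 best known from heart, was detected on 0 of 12 arrays, at 7.0 or less in TG pools and 6.8 or less in WT pools. Fat cells also hold Gpd1, and adipocyte markers (2 kept of 6) summed to 470.2, 1021.0 and 783.4 in TG pools, against 571.9, 462.4 and 604.2 in WT pools. The part of fat cells in the Gpd1 signal was not tested.

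In the pentose phosphate pathway neither kept gene was called. Taldo1, transaldolase, read 3546.8, 3656.1 and 3597.7 in TG pools, against 3557.6, 3457.1 and 3366.8 in WT pools (0.13 ± 0.06, adjusted p = 0.159). Tkt, transketolase, read 105.8, 100.4 and 152.4 in TG pools, against 150.7, 128.0 and 110.9 in WT pools (-0.06 ± 0.09, adjusted p = 0.662), and its difference was 0.18 on chip 1 and -0.29 on chip 2. Pgd, of the oxidative branch, was detected on 0 of 12 arrays. Hif1a, the oxygen-regulated factor that drives many glycolytic genes, had no kept probe, and its brightest probe read 16, 14 and 31.2 in TG pools, against 27.9, 13.3 and 15 in WT pools. In all, 7 genes (Hk1, Aldoc, Ldhb, Slc16a1, Gpd1l, Hif1a and Pgd) had 11 probes without one that was kept, and their pool signals ran from -8.3 to 31.2.

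Deposited signals did not overlap between genotypes for 21 of the 33 kept probes and 16 of the 24 genes, against 47.4% of all kept probes and 49.6% of all genes. Bright probes as a class were higher in TG on the deposited scale, before the normalisation used here. That scale already had the same mean, 472.135, on every array, so it does not give raw intensity. Of 193 probes with a mean signal above 20000, a limit chosen after seeing the values, 97 (50.3%) had all TG pools above all WT pools and 22 (11.4%) had them below. The median log2 ratio of deposited means was 0.16 over these 193 probes and -0.10 over all kept probes. For the 11 glycolytic probes among them the median was 0.41 on the deposited scale and 0.31 after quantile normalisation, where the 193 probes had a median of -0.0038. The summed muscle fibre markers, bright themselves, did not overlap between genotypes either, while in the fit 1 of the 7 was higher, 1 lower and 5 not called. Their part in the result was not tested. The highest signal of any probe on any array was 65559.2, and the part of signal saturation in the brightest probes was not tested.

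**Figure D3:**
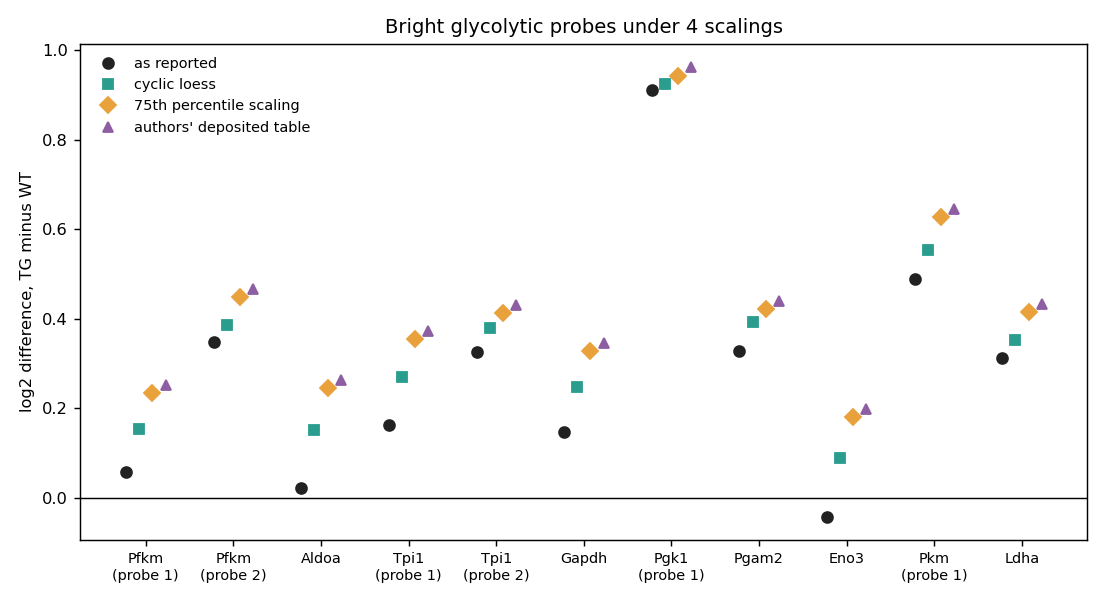
The vertical axis gives the log2 difference, TG minus WT, of the 11 glycolytic probes with a mean signal above 20000, under the reported quantile normalisation (black circles), cyclic loess (green squares), 75th percentile scaling (orange diamonds) and the authors' deposited table (purple triangles). Pgk1 stays between 0.91 and 0.96 under all 4, while Eno3 lies at -0.04 as reported and at 0.20 in the deposited table.

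The choice of scaling therefore moved the brightest genes. With 75th percentile scaling Gapdh (0.33) and the brightest Tpi1 probe (0.36) were called, as they were with cyclic loess (0.25 and 0.27). Aldoa was at 0.24 with 75th percentile scaling, 0.15 after loess and 0.26 in the authors' deposited table. Eno3 was at 0.18, 0.09 and 0.20 in the same order, and none of these values was called. Of the 15 called probes, all kept their direction in every alternative and 6 kept the call in every alternative, the main probes of Slc2a1, Slc2a3, Pfkfb4, Pgk1, Pkm and Gpd1. Without WT2 8 of the 33 probes were called, without TG3 15, and with WT1 taken from chip 1 alone, an alternative added after seeing the data, 16 were called.

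Whether a muscle isoform and its counterpart differed in their response was asked pool by pool, as the log2 value of the one minus that of the other. Of 10 such pairs 4 had both isoforms kept. The smallest p of an exact permutation test of 3 against 3 pools is 0.1, so no pair can pass 0.05, and p-values were adjusted over the 4 pairs. Slc2a4 minus Slc2a1 was 3.49, 3.40 and 3.33 in the TG pools, against 1.97, 2.63 and 2.45 in the WT pools, without overlap. The shift was 1.06, made up of 0.37 for Slc2a4 and -0.69 for Slc2a1 (exact two-sided permutation p = 0.1, adjusted 0.133).

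Pgam2 minus Pgam1 shifted by 0.38 (exact permutation p = 0.1, adjusted 0.133), but by 0.61 on chip 1 and 0.15 on chip 2. It was 7.83, 7.75 and 7.48 in the TG pools, against 7.05, 7.47 and 7.39 in the WT pools. The groups did not overlap, though TG3 and WT2 nearly met. Pfkm minus Pfkl shifted by -0.29 (exact permutation p = 0.1, adjusted 0.133), a value that became -0.05 with 75th percentile scaling and 0.10 with the mean of all kept probes of each gene. Pfkm minus Pfkp overlapped between genotypes (-0.20, exact permutation p = 0.4).

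**Figure D4:**
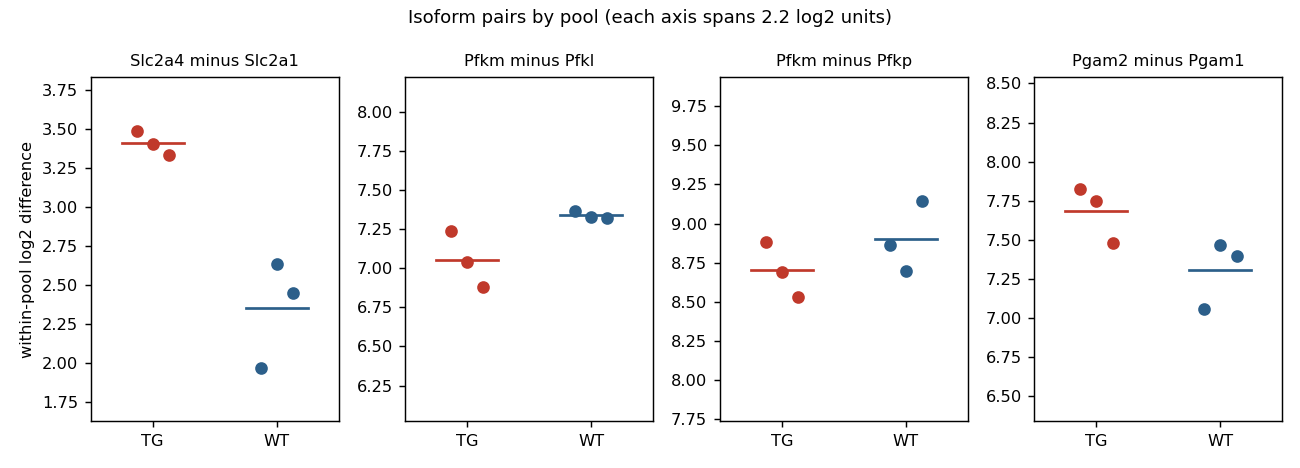
Each panel shows the log2 value of the muscle isoform minus that of its counterpart in each pool (TG red on the left, WT blue on the right), with a line at each mean and an axis of equal span. The Slc2a4 minus Slc2a1 panel shows the widest separation, with TG pools at 3.33 to 3.49 and WT pools at 1.97 to 2.63.

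Other genes of sugar transport and glycolysis that were listed alongside gave a mixed picture. Of 31 listed, 14 were tested, 4 were higher in TG, 2 were lower and 8 were not called (median log2 difference 0.13). The called share was 42.9%, against 28% of all genes. Fbp2, the muscle fructose bisphosphatase that runs against phosphofructokinase, had 14116.5, 13377.2 and 13243.4 in TG pools, against 2723.8, 3655.4 and 3122.3 in WT pools (2.14 ± 0.11, adjusted p = 2.2e-05). Emb, a partner protein of lactate transporters, had 290.8, 436.5 and 920.3 in TG pools, against 177.9, 65.2 and 66.2 in WT pools (1.94 ± 0.33, adjusted p = 0.00514), highest in TG3 and WT1 within each genotype as leukocyte markers were, and the part of leukocytes was not tested. Khk, ketohexokinase, read 398.8, 434.8 and 346.8 in TG pools, against 699.8, 640.5 and 743.5 in WT pools (-0.62 ± 0.11, adjusted p = 0.00587). Adpgk, the ADP-dependent glucokinase, read 88.0, 134.5 and 128.1 in TG pools, against 243.9, 222.8 and 232.3 in WT pools (-0.67 ± 0.10, adjusted p = 0.00244). The other 2 called higher were Tigar (0.50 ± 0.11) and Bsg (0.36 ± 0.07). Tigar breaks the fructose bisphosphate that switches on phosphofructokinase, and Bsg is the basigin chaperone of lactate transporters. The Bsg probe was detected on 6 of 6 TG arrays and 2 of 6 WT arrays, so it was kept through the TG arrays alone and its difference is in part built into the filter.

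Of 10 further pentose phosphate genes 6 were tested, with 2 higher, 2 lower and 2 not called (median -0.06). The called share was 66.7% of these few genes, against 28% of all genes. Rpia, ribose phosphate isomerase, read 862.0, 825.2 and 955.4 in TG pools, against 510.4, 659.8 and 608.1 in WT pools (0.65 ± 0.11, adjusted p = 0.00491), and Rbks, ribokinase, was at 0.35 ± 0.10. H6pd, the dehydrogenase of the endoplasmic reticulum that starts the pathway there, read 1071.6, 1094.0 and 1058.8 in TG pools, against 1976.2, 1816.2 and 1672.0 in WT pools (-0.60 ± 0.08, adjusted p = 0.00156). Prps1, which uses ribose phosphate to make the nucleotide precursor PRPP, was at -0.38 ± 0.08.

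Of 13 tested genes of GLUT4 vesicle traffic 0 were called higher, 3 were lower and 10 were not called. The called share was thus 23.1%, near the 28% of all genes, of which 15.9% were lower. The 3 were Aspscr1 (-0.37 ± 0.07), the TUG protein that tethers GLUT4 vesicles, Cltc (-0.32 ± 0.08), the clathrin heavy chain, and Rab14 (-0.29 ± 0.07). Tbc1d4 (0.06 ± 0.10) and Tbc1d1 (0.08 ± 0.14), the brakes on GLUT4 release, were among those not called. Of 13 glucose and oxygen sensing factors 2 were higher, 3 lower and 8 not called, a called share of 38.5% against 28% of all genes. Egln3, an oxygen-sensing prolyl hydroxylase that is itself induced by hypoxia, read 1156.8, 1277.7 and 1452.8 in TG pools, against 918.2, 890.7 and 785.2 in WT pools (0.66 ± 0.09, adjusted p = 0.00205). Hif3a, a relative of Hif1a, read 40.0, 40.4 and 36.9 in TG pools, against 139.3, 138.6 and 110.2 in WT pools (-0.86 ± 0.08, adjusted p = 4.0e-04). A dimmer Hif3a probe, detected on 5 of 6 TG arrays and 4 of 6 WT arrays, was not kept and did not show this fall. It read 31.8, 27.6 and 19.5 in TG pools, against 15.1, 24 and 19.6 in WT pools. Vhl was called higher with overlapping signals (0.28 ± 0.09), and Hif1an and Mlx were each lower by less (-0.25 ± 0.07 in both).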

How the data were processed

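Skeletal muscle RNA of 3 TG and 3 WT pools was measured on 12 Illumina arrays. The deposited signals are intensity values on a linear scale, headed non-normalized per the file headers, yet 29.3% to 32.8% of them were below 0 per array and their mean was 472.135 on every array. The deposited detection values are headed p-values per the file headers, but increased with brightness (Spearman correlation 0.975 or more) and were read as 1 minus p. The authors' deposited table holds log2 values. It was rebuilt to within 0.00109 by flooring signals at 1, taking log2, and subtracting first each array's 75th percentile and then each probe's median. It runs in the direction of the signal, with column medians from -0.251 to 0.0935. Scanner software and processing tools are not given in the sources used here.

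Signals were corrected with normexp (offset 50), quantile normalised and log2 transformed, and both arrays of a pool were averaged. A probe was kept when its detection p was under 0.05 on every array of TG, of WT or of both. Pools were compared by limma 3.58.1 (R 4.3.3) with lmFit and eBayes as a two-sided test, with Benjamini-Hochberg adjustment over the kept probes, after the procedure was tested on simulated data. Gene names come from the array's annotation, possibly outdated, with 34885 probes of 1 symbol, 18 of several and 10378 of none here. Signals per pool are the mean of both deposited values, and differences are on the normalised log2 scale. The number of pools, 3 per genotype, and the signal over background limit the precision.

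Every listed gene was accounted for. Genes with a called probe, or in a step that holds one, were given per pool, and other pathway genes were named where called, up to 4 per list by smallest p. Tigar, Bsg, Vhl, Tbc1d1 and Tbc1d4 fall outside this rule and were named after their values were seen. Genes and lists were chosen with earlier results of these data known. Alternatives covered background correction, normalisation, the filter, each chip, blocks, probe choice and single pools left out.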

Additional observations from a re-analysis of the deposited data

How the results depend on the processing

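The 15 called probes became 8 in the authors' deposited table (5 of them higher in TG), 7 on chip 2 alone and 8 without WT2, and single pools left out gave 8 to 15. Over all probes, 4059 calls became 1454 on chip 2 alone, 2586 without WT1, 2060 without WT2 and 2581 without WT3. The cause was not tested. With the chip as a replicate block and pools as random effects, 17 were called (statmod 1.5.0). The pool numbers pair nothing in the labels, and deviations of TG and WT pools of the same number correlated at -0.417, 0.342 and -0.119. With the pool number as a replicate block 12 were called, Pfkl, Pgam2 and the dim Pfkfb4 probe no longer among them, which is not a weaker effect. The median log2 difference of 0.14 became 0.26 with 75th percentile scaling, 0.20 with cyclic loess, 0.29 in the authors' deposited table, 0.043 with no filter on dim probes, 0.096 with the stricter detection limit of 0.01 and 0.11 on chip 2 alone, and 0.13 to 0.15 without single pools. Of the called probes over all genes 43.6% were higher in TG, against 33.5% with 75th percentile scaling and 51.1% with cyclic loess. Isoform pairs whose pools did not overlap, 3 as reported, became 1 in the authors' deposited table and 1 with 75th percentile scaling, and 3 to 4 without single pools. No called probe changed sign in any alternative run. Dim probes, such as those of Hk1, Ldhb and Hif1a, had too little signal over background to be compared.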
